A study of Homo sapiens with 2 samples.

Results

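TRAIL, encoded by TNFSF10, is a ligand of the tumour necrosis factor family that can kill tumour cells through receptors on their surface. A receptor with a death domain, such as TNFRSF10A or TNFRSF10B, passes the signal to FADD and CASP8. A decoy receptor binds the same ligand without a working death domain, or is secreted, and so holds ligand away. Colon tumour cells are known to carry both kinds.

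Described here are 10 genes of this group among the 26255 gene symbols measured. They comprise death receptors (TNFRSF10A, TNFRSF10B, TNFRSF1A, TNFRSF21), decoys (TNFRSF10C, TNFRSF10D, TNFRSF6B), a receptor without a death domain (TNFRSF12A) and a pair of ligands (TNFSF10, TNFSF15). The genes were chosen by symbol, with the FPKM of both libraries and earlier results of these data in view, so their values are a description and no test is attached to them.

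The RNA came from xenograft tumours made with HT-29, a colon cancer cell line, in female NOD SCID mice. These mice lack working T and B lymphocytes and were 5 weeks old. Both groups carried the same tumour line and differed in food: normal food, or food without methionine, tryptophan and niacin, called depleted food below. The mice were kept on this food for 2 weeks, although the design text elsewhere gives 3 weeks for the experiment. There was 1 library per food, 2 in all, and the sources used here do not give the number of mice or tumours behind each.

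The unit is FPKM, fragments scaled to transcript length and to the size of the library, so levels of different genes can be set side by side. FPKM above 0 were found for 16481 and 16427 symbols. From the step that 1 fragment makes in low values, the library sizes to which FPKM were scaled were an estimated 7166000 and 6904000 fragments. These are not the numbers of fragments sequenced. The log2 ratio is log2((depleted + 1)/(normal + 1)), which understates differences of low genes, and it was read only where the mean of both libraries reached 1 FPKM, for 12414 genes. With 1 library per food a difference has no replicate check and no p-value, and the food cannot be told apart from other differences between the tumours. The intervals below are 95% intervals for counting error only, from fragments estimated with 1 transcript length per gene.

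All 12 colon epithelium markers were at 4.92 FPKM or more in both libraries, KRT8 and KRT18, keratins, the highest at 3849 and 3313 FPKM and at 2076 and 2334 FPKM. Human leukocyte markers summed to 1.54 and 1.18 FPKM over 10 genes, endothelial markers to 0.211 and 0.108 FPKM over 6 genes, and fibroblast markers to 4.42 and 3.86 FPKM over 7 genes. Of the last, the collagen gene COL1A1 was at 2.33 and 2.77 FPKM and LUM, lumican, at 1.99 and 0.966 FPKM (log2 ratio -0.61, -1.03 to -0.18). PTPRC, the general leukocyte marker, was at 0.0268 FPKM under normal food and listed at 0 under depleted food. Host cells are mouse cells, so these human values cannot tell how many of them the tumours held. In bulk tumour RNA fewer cells of a type and less RNA per cell cannot be told apart.

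TNFRSF6B, which encodes the secreted decoy DcR3 that binds FASLG, TNFSF14 and TNFSF15, is annotated inside a longer transcript. The readthrough transcript RTEL1-TNFRSF6B runs from the exons of RTEL1, a DNA helicase, into those of TNFRSF6B. In GENCODE release 29, the annotation used here for lengths, all 900 coding bases of TNFRSF6B lie in exons of each of the 3 readthrough transcripts, and every one of its 1092 windows of 50 bases also occurs in them. The spliced readthrough of 4824 nt shares 1032 of the 1141 bases of the TNFRSF6B transcript. The point where they part is printed, and its bearing on the TNFRSF6B values was not tested. Readthrough transcripts of 5751 and 5843 nt share 1141 and 1137 of the 1141 bases. This point therefore does not separate TNFRSF6B from every readthrough transcript. On GRCh38 the RTEL1 exon ends at position 63695854 of chromosome 20, plus strand, and is joined to position 63696760, which is 8 bases before the TNFRSF6B coding sequence. The capitals mark the 30 bases both transcripts share, and the 20 bases in lower case are those before the junction.
TNFRSF6B: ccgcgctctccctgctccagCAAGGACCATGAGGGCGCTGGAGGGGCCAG
RTEL1-TNFRSF6B: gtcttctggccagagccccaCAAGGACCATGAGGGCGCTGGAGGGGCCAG

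TNFRSF6B was listed at 0.337 FPKM under normal food and 2.49 FPKM under depleted food. Of the 9 genes that reached a mean of 1 FPKM it alone was past 1.3-fold, with a log2 ratio of 1.39 (0.76 to 2.01). Before the pseudocount the ratio of FPKM was 7.40. A binomial 95% interval that takes the estimated fragments, rounded to 3 and 20, as counts ran from 2.05 to 36.4. Both intervals leave out how fragments in exons shared with the readthrough were assigned, so neither sets a lower bound on the ratio. TNFRSF6B passed the filter only through its depleted-food value. Of the 12414 genes, 4.74% were past 1.3-fold in the higher direction under depleted food and 4.99% in the lower direction, which is 588 and 620 genes. This near balance depends on the scaling: when the FPKM of each library were brought to the same sum, 765 genes were past it upwards and 478 downwards, and TNFRSF6B remained the 1 gene of the group past it. At 2-fold, which TNFRSF6B also passed, the shares were 0.524% higher and 0.371% lower. These shares are over genes of all levels, so they do not show how rare such a ratio is among genes as low as TNFRSF6B. For the 500 genes nearest to it in mean level, the middle 90% of log2 ratios ran from -0.56 to 0.58. That range reaches past 1.3-fold in both directions, and the 1.39 of TNFRSF6B lay above it.

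The readthrough went the other way. RTEL1-TNFRSF6B was at 0.993 FPKM under normal food, about 34.3 fragments, and was listed at 0 under depleted food. Added together, the 2 symbols that hold the TNFRSF6B coding sequence came to 1.33 FPKM under normal food and 2.49 FPKM under depleted food. That is a log2 ratio of 0.58, for which no counting interval was computed. Their estimated fragments were fewer under depleted food: 34.3 (readthrough) and 2.76 (TNFRSF6B) under normal food, 0 and 19.6 under depleted food. FPKM weighs a fragment of the shorter transcript, 1141 nt against 4824 nt, more. RTEL1 itself was at 6.84 and 7.68 FPKM, a log2 ratio of 0.15 (-0.09 to 0.38).

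Over RTEL1, the readthrough and TNFRSF6B together, the estimated fragments were 246.5 under normal food and 246.1 under depleted food. Scaled to the estimated size of each library, that is a ratio of 1.03 (0.863 to 1.24). RTEL1 supplied most of them, 209 and 226, so a total of this size could not show a difference as small as that at TNFRSF6B. The summed FPKM of the 3 symbols, in which a fragment of a short transcript weighs more, was 8.17 under normal food and 10.2 under depleted food. The fragment total depends on the transcript taken for RTEL1, of 4273 nt. How the authors' tools split fragments that lie in shared exons is not given in the sources read, and its part in the TNFRSF6B ratio was not tested.

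**Figure D1:**
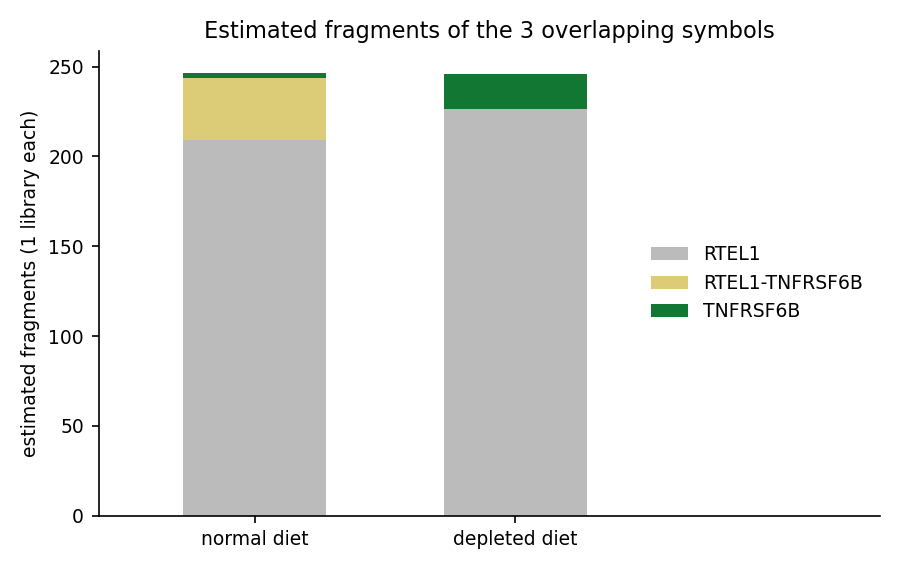
Estimated fragments (vertical axis) of RTEL1, RTEL1-TNFRSF6B and TNFRSF6B as stacked bars, 1 library per food. The bars reach nearly the same height, 246.5 and 246.1, while the readthrough (34.3 fragments) is present only under normal food and TNFRSF6B goes from about 3 to about 20.

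TRAIL has 5 receptors, and the 4 that sit in the cell membrane are encoded by neighbouring genes on 1 chromosome with no other protein-coding gene starting between them. TNFRSF10B, the death receptor DR5, was the highest of the 5 at 24.8 FPKM under normal food and 22.3 FPKM under depleted food. Its log2 ratio was -0.15 (-0.30 to -0.0021), inside the -0.25 to 0.29 that held the middle 90% of the 500 genes nearest to it in mean level. TNFRSF10A, the death receptor DR4, was at 5.75 and 6.23 FPKM, and its log2 ratio of 0.10 (-0.22 to 0.42) was within counting error. TNFRSF10B was 4.32 times as high as TNFRSF10A under normal food (3.54 to 5.27) and 3.58 times under depleted food (2.94 to 4.36). These intervals overlap.

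TNFRSF10D, the decoy DcR2 whose death domain is cut short, was at 6.70 FPKM under normal food and 5.62 FPKM under depleted food. That is a log2 ratio of -0.22 (-0.50 to 0.06), again within counting error. TNFRSF10C, the decoy DcR1 that is anchored by a lipid and lacks a death domain, was at 0.0983 FPKM under normal food and listed at 0 under depleted food. The first value is worth about 1 fragment, both lie under a floor of 3 fragments, and no ratio is given. Of its 1669 windows of 50 bases, 38.3% also occur in transcripts of other genes, against at most 1.27% for the 8 genes other than TNFRSF10C and TNFRSF6B. Of 2 uncharacterised symbols listed with these receptors, LOC254896 was at 0.245 FPKM and listed at 0, and LOC389641 was at 1.94 and 1.87 FPKM.

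TNFRSF11B encodes osteoprotegerin, a secreted receptor that binds both TRAIL and the bone ligand RANKL. It was at 4.03 and 4.07 FPKM, a log2 ratio of 0.01 (-0.38 to 0.40). Death receptors TNFRSF10A and TNFRSF10B together made up 73.8% of the summed FPKM of the 5 TRAIL receptors under normal food (71.0 to 76.7) and 74.7% under depleted food (71.7 to 77.6). Most TRAIL receptor RNA was thus from death receptors in both libraries, and the shares differed by less than counting error. The sum itself was 41.4 and 38.2 FPKM.

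**Figure D2:**
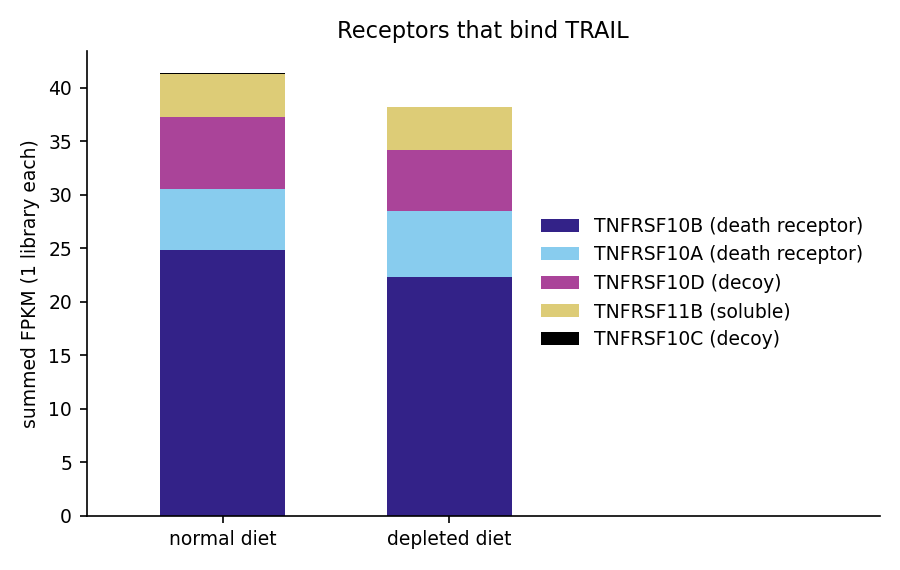
Summed FPKM (vertical axis) of the 5 receptors that bind TRAIL, stacked by gene, 1 library per food. TNFRSF10B takes the largest part of both bars, which reach 41.4 and 38.2 FPKM, and TNFRSF10C at 0.0983 FPKM is barely visible.

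The ligand TNFSF10 had the lowest log2 ratio of the 9 genes. TNFSF10 was at 24.8 FPKM under normal food and 19.5 FPKM under depleted food, a log2 ratio of -0.33 (-0.56 to -0.11). This is 1.26-fold lower, short of 1.3-fold, but outside the -0.29 to 0.30 that held the middle 90% of the 500 genes of like level. TNFSF15, which encodes TL1A, the ligand of the receptor TNFRSF25 and of the decoy TNFRSF6B, was at 5.50 and 6.05 FPKM, a log2 ratio of 0.12 (-0.09 to 0.33). TNFSF10 was 4.52 times as high as TNFSF15 under normal food (3.85 to 5.30) and 3.22 times under depleted food (2.72 to 3.81). These intervals do not overlap, and the pair was set side by side after the values were seen.

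TNFSF10 is known as an interferon-induced gene, and the 250 bases before its start are printed because it was the gene of this group with the lowest ratio. The window is chr3:172523431-172523680 on GRCh38.p14, minus strand, from RefSeq, where all 10 genes matched by symbol and 5 had a promoter window. Capitals mark a match to the core of the interferon-stimulated response element (GAAA, any 2 bases, GAAA), here on the other strand from position -187 counted from the start, and a TATAAA match from position -31.
TNFSF10: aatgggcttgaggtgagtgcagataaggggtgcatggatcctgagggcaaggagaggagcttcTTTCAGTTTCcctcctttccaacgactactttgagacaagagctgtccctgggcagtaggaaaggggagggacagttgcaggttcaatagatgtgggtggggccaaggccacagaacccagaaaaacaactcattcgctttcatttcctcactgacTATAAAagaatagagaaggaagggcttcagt

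Both strands were searched in windows of 300 bases. The response element core occurred in 3.57% and TATAAA in 11.5% of the 35116 promoter windows. Neither occurred in the windows of TNFSF15, TNFRSF1A, TNFRSF21 and TNFRSF6B. Also searched were the GC box GGGCGG, the AP-1 site TGANTCA and CCAAT, found in 44.95%, 7.709% and 34.61% of the windows. The TNFSF10 window held none of these. The GC box occurred in those of TNFRSF6B and TNFRSF21, the AP-1 site in that of TNFSF15, and CCAAT in those of TNFRSF1A and TNFSF15. A match is a description of the letters.

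TNFRSF12A, or Fn14, the receptor of TWEAK that signals through TRAF adaptors, was by far the highest of the 10 genes. It was at 158 FPKM under normal food and 188 FPKM under depleted food, above 96.6% and 97.3% of the 12414 genes. Its log2 ratio of 0.25 (0.14 to 0.36), a 1.19-fold difference, lay above the middle 90% of the 500 genes of like level, -0.25 to 0.18. TNFRSF12A alone held 56.1% of the summed FPKM of the 8 receptors under normal food (54.4 to 57.8) and 59.1% under depleted food (57.6 to 60.7). Its ligand TNFSF12 was low, at 1.08 and 1.12 FPKM, and a readthrough symbol that joins it to TNFSF13 was listed at 0 in both libraries.

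TNFRSF21, or DR6, a death receptor known for binding a fragment of the amyloid precursor protein, was second, at 57.6 and 60.6 FPKM. Its log2 ratio of 0.07 (-0.03 to 0.17) was within counting error, and so was that of APP, at 144 FPKM in both libraries (0.01, -0.06 to 0.07). TNFRSF1A, the main receptor of TNF on epithelial cells, was at 28.2 and 32.6 FPKM, a log2 ratio of 0.20 (0.03 to 0.38). That lay within the -0.29 to 0.26 of genes of like level. TNFRSF1B, the other TNF receptor, was listed at 0 in both libraries, and TNF was at 0.345 and 0.269 FPKM.

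Over the 9 genes, 6 were higher and 3 lower under depleted food; their median log2 ratio was 0.10, against 6132 higher and 6282 lower and a median of -0.0029 over all 12414 genes. Of the 9, TNFRSF12A and TNFSF10 lay outside the middle 90% of genes of like level. So did TNFRSF6B, which reached the filter only through its depleted-food value. That range leaves out 10% of genes by construction, and genes chosen with their values in view cannot be set against this share. The order of levels was nearly the same in both libraries. TNFRSF12A stood clear of TNFRSF21 (2.74 times, 2.54 to 2.96, under normal food), and TNFRSF21 clear of TNFRSF1A (2.04 times, 1.84 to 2.27). TNFRSF10A was 0.857 times TNFRSF10D under normal food (0.675 to 1.09) and 1.11 times under depleted food (0.866 to 1.42), so that their order could not be told at this depth.

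**Figure D3:**
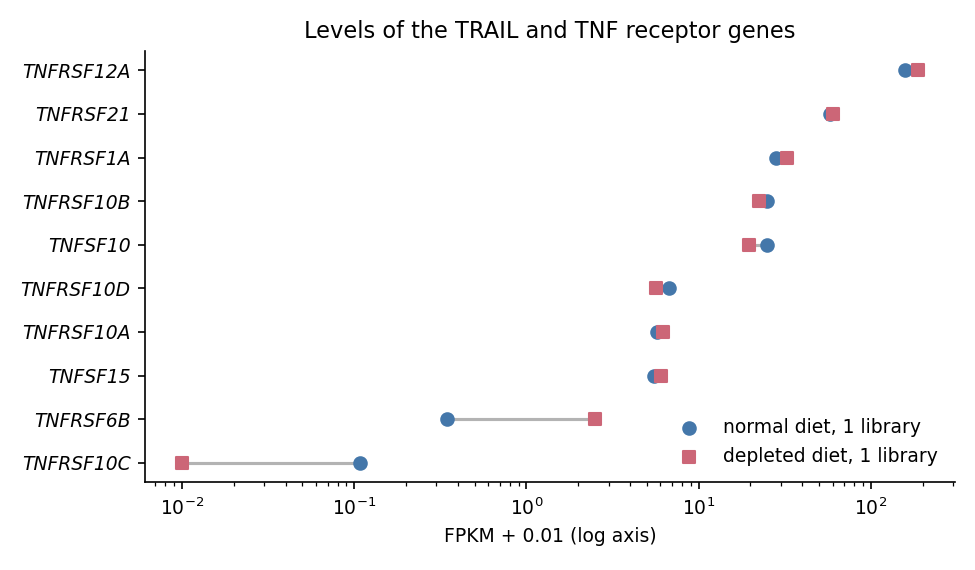
FPKM plus 0.01 on a log axis (horizontal) of the 10 genes in the normal-food library (circles) and the depleted-food library (squares). For 8 genes the symbols nearly touch, from 5.50 to 188 FPKM, while TNFRSF6B (0.337 and 2.49 FPKM) and TNFRSF10C (0.0983 and 0 FPKM) lie apart at low levels.

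**Figure D4:**
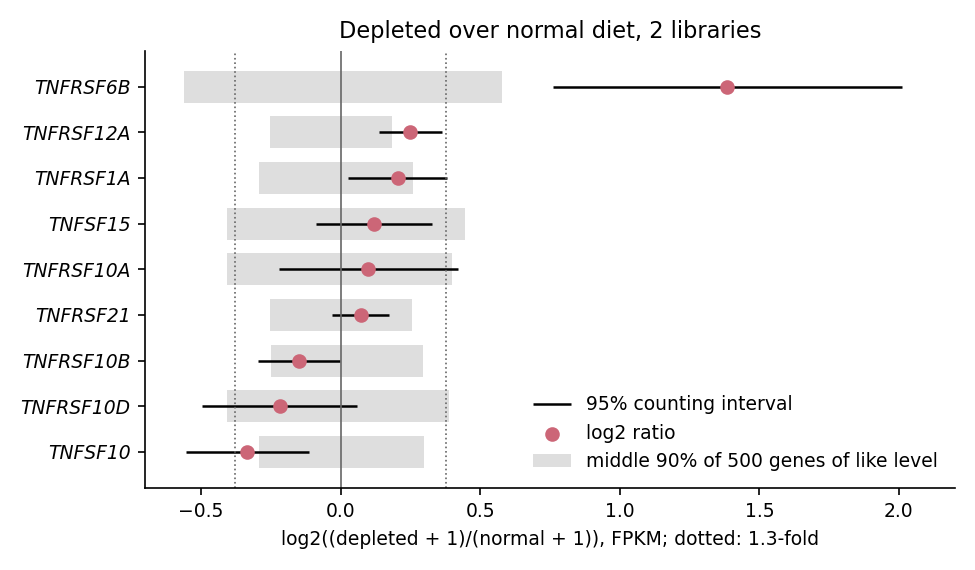
Log2 ratio of depleted to normal food (horizontal) for the 9 genes that reached a mean of 1 FPKM, with 95% counting intervals (lines) and the middle 90% of 500 genes of like level (grey). TNFRSF6B at 1.39 is past the dotted 1.3-fold lines, and TNFRSF12A (0.25) and TNFSF10 (-0.33) lie just outside their grey bars.

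The rest of the pathway was read from lists of 116 genes, of which 86 reached a mean of 1 FPKM. Of these, 2 were past 1.3-fold in the higher direction (2.33%) and 4 in the lower (4.65%), and the median log2 ratio was 0.01. These shares are under the 4.74% and 4.99% of all genes, so the genes past 1.3-fold that are named below are single values and not results about their lists. Among 21 other receptors of the family only 7 were measured at that level. The 1 past 1.3-fold was TNFRSF11A, the receptor RANK, at 6.66 and 4.59 FPKM (-0.45, -0.65 to -0.26). LTBR, the lymphotoxin receptor, was the highest at 69.6 and 65.3 FPKM. TNFRSF14, a receptor of TNFSF14, was at 30.7 and 24.3 FPKM (-0.32, -0.54 to -0.11). FAS, a death receptor, was at 4.14 and 4.10 FPKM, and TNFRSF25, the receptor of TNFSF15, at 6.51 and 8.32 FPKM (0.31, -0.07 to 0.70).

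Of 16 other ligands 3 were measured at that level, and none passed 1.3-fold. TNFSF13, or APRIL, was the highest at 18.2 and 16.5 FPKM, and EDA, ectodysplasin, was at 1.25 and 1.15 FPKM. FASLG was listed at 0 in both libraries, and TNFSF14 at 0 and 0.0511 FPKM. The ligands of TNFRSF6B other than TNFSF15 were thus listed at or near 0 as human RNA, and mouse ligands of the host are not measured by these values.

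The death-inducing complex forms on the receptor tail. All 10 genes of this list were measured, 4 higher and 6 lower, with a median of -0.01 and none past 1.3-fold. FADD, the adaptor, was at 24.5 and 28.7 FPKM (0.22, 0.01 to 0.43), and CASP8, the initiator caspase, at 24.2 and 21.8 FPKM (-0.14, -0.38 to 0.10). CFLAR, which encodes the caspase-8 inhibitor FLIP, was at 35.9 and 27.8 FPKM (-0.36, -0.43 to -0.29, with a transcript of 14672 nt assumed for its fragments). CFLAR was 1.49 times CASP8 under normal food (1.32 to 1.68) and 1.27 times under depleted food (1.12 to 1.45), and these intervals overlap. DEDD2, a nuclear death effector protein, was at 38.5 and 31.0 FPKM (-0.30).

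Among 25 genes of the TRAF, IAP and ubiquitin steps, which turn receptor signals towards NF-kB, 12 were higher, 13 were lower and the median was -0.01. TNIP1, a partner of the NF-kB inhibitor TNFAIP3, was the highest of the list and the 1 gene past 1.3-fold, at 107 and 76.9 FPKM (-0.48, -0.57 to -0.38). TANK, an adaptor that binds TRAF proteins, was at 52.4 and 56.4 FPKM (0.10).

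Of the mitochondrial step and the executioners, 12 of 15 genes were higher under depleted food, with a median of 0.17. DFFB, the nuclease that cuts DNA in dying cells, was the 1 past 1.3-fold, at 4.47 and 6.55 FPKM (0.46, 0.15 to 0.78). BAX, which opens the outer mitochondrial membrane, was at 111 and 127 FPKM (0.19, 0.03 to 0.34), and CYCS, cytochrome c, at 28.98 and 32.9 FPKM (0.18, 0.05 to 0.31). BID, which links CASP8 to mitochondria, was at 19.9 and 20.9 FPKM (0.07, -0.13 to 0.27).

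Of the necroptosis list 3 of 4 genes were measured, 2 higher and 1 lower. RIPK3, its kinase, was at 14.0 and 9.60 FPKM (-0.50, -0.80 to -0.21) and was past 1.3-fold. MLKL was at 9.43 and 12.1 FPKM (0.33, 0.06 to 0.59), and PGAM5, a mitochondrial phosphatase, was at 25.2 and 28.7 FPKM (0.18). None of the 9 measured genes of receptor glycosylation and shedding passed 1.3-fold, and their median was -0.01. The highest were TSTA3 at 98.7 and 95.7 FPKM and GMDS at 90.6 and 80.5 FPKM, both of which make GDP-fucose. Of the TNFRSF21 ligand list, APLP2, an APP relative, was the highest at 149 and 147 FPKM.

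Of 11 transcription factors reported at TRAIL pathway genes, 5 were higher, 6 were lower and the median was -0.06. DDIT3, or CHOP, which can raise transcription of TNFRSF10B, was at 87.9 and 59.7 FPKM (-0.55, -0.73 to -0.37) and was past 1.3-fold. ATF4, which acts upstream of DDIT3, was the highest at 266 and 246 FPKM. TP73, a relative of p53, was at 1.60 and 2.39 FPKM (0.38, 0.07 to 0.69), just past 1.3-fold. TNFRSF10B and DDIT3 both had log2 ratios below 0, of -0.15 and -0.55, and the part of DDIT3 in the TNFRSF10B value was not tested.

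Early response genes, which react to handling of tissue, were lower under depleted food in 9 of 10 cases. Of these 4, 40% of the list, were past 1.3-fold: DUSP1 (-1.04), FOSB (-0.96), FOS (-0.69) and ATF3 (-0.62). Over all 12414 genes 6282 were lower, and 4.99% were past 1.3-fold in the lower direction. EGR1 was at -0.02, and IER2, the 1 higher gene, at 0.20. The highest of the list were ZFP36 at 74.3 and 64.4 FPKM and JUN at 65.1 and 56.8 FPKM. Their part in the receptor values was not tested.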

How the data were processed

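RNA of HT-29 tumours from 2 diets, 1 library each, was read from the deposited FPKM values of 26255 gene symbols, per the file headers. The submitters' processing notes list Cuffdiff 2.2.1, TopHat2 2.1.1, SAMtools 0.1.18 and Bowtie2 2.2.8, with the build hg19 and no roles, and the kit marks strand, per the labels' protocols. The sources used here give no annotation, strand setting or removal of mouse reads, so mouse reads that resemble human sequence could add to the values.

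Ratios used a pseudocount of 1 FPKM and genes whose mean reached 1 FPKM. One fragment was worth a median FPKM times length of 139.5 (88 genes, SD 10.2) and 145 (114 genes, SD 12.9) in single-transcript genes of 1000 to 6000 nt within a window of 100 to 170, chosen after the values were seen. Lengths came from GENCODE release 29 on GRCh38, another build than the files', so only sequences printed here carry coordinates. Intervals add no spread between tumours. Simulated data were used only for the depth estimate, the passing of 1.3-fold by genes changed 2-fold, and the counting error. For the counting error the simulated counts were used, not fragments estimated from FPKM. Shared exons, receptor shares, ranges of genes of like level and motif matches were not simulated. Python 3.11.15, numpy 2.4.6, pandas 2.3.3 and scipy 1.17.1 were used.

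The members and lists were chosen with earlier results of these data known. Genes named were the 10 members, the known partners, and of each list the 2 highest and up to 4 past 1.3-fold. PTPRC, MLKL, EGR1 and IER2 were also named, chosen after their values were seen. The pathway lists held 116 genes. The fold, filter, scaling, pseudocount and short RNA genes were varied.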

Additional observations from a re-analysis of the deposited data

How the results depend on the processing

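No paired analysis was possible because a single library stands for each food, which also leaves none to drop. A changed pseudocount or filter cannot change the sign of a ratio, and a filter leaves its value as it was. Only the common sum and the common upper quartile could change a sign, and under these all 9 ratios kept theirs. Of all 53 alternative values 51 stayed within counting error. The other 2 were TNFRSF6B, at 2.57 with a pseudocount of 0.1 FPKM and 0.49 with 5 FPKM, as a pseudocount near its level must move it. With the readthrough added to it, an alternative chosen after seeing the data, its ratio was 0.58. With the filter at 5 FPKM it dropped out, which left 0 genes of the group past 1.3-fold. Without TNFRSF11B the death receptor share was 81.8% and 83.5%, by construction.

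Against 588 genes higher and 620 lower, a common sum gave 765 and 478, a common upper quartile 624 and 585, a pseudocount of 0.1 FPKM 876 and 887, a pseudocount of 5 FPKM gave 190 and 203, no filter 907 and 973, a filter of 5 FPKM 289 and 320, a 1.5-fold threshold 205 and 189, and a 2-fold threshold 65 and 46. The higher share of genes past the threshold was 48.7% in the main setting, 61.5% with the common sum and 58.6% at 2-fold, the settings that moved it most. Of 52 alternative list medians 51 stayed within counting error and 5 changed sign, all of medians near 0; the other receptors had -0.21 with the filter at 5 FPKM, where fewer genes remain. Scaling to a common sum moved the median of all genes to 0.04. Depth limits TNFRSF10C and TNFRSF6B most.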
